A study of Mus musculus with 9 samples.

Results

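Matricellular proteins are secreted into the extracellular matrix, where they act on cell surface receptors, growth factors and proteases more than as structural fibres. They are sparse in normal adult tissue and appear where tissue is wounded, remodelled or scarred, and the activated hepatic stellate cell (aHSC) is a known source of them in the fibrotic liver. Fibronectin, a fibrillar glycoprotein laid down early in scar, is the scaffold on which several of them and the collagens assemble. The set described here held 10 genes, namely the CCN family genes Cyr61, Ctgf and Nov, together with Sparc, Spp1, Thbs1, Thbs2, Tnc, Postn and Fn1. Members were found by gene symbol in the annotation of the arrays, and they had 26 of the 45281 gene probes. Of these probes 19 passed the filter on detection, and they covered 9 of the 10 genes, with Postn left untested.

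Transcript levels were measured on bead arrays in 3 groups of mouse aHSCs, with 3 arrays in each. All samples are labelled as from male C57/Bl6 WT1GFP/+ mice (the study's methods name both sexes for work in vitro), in which green fluorescent protein (GFP) reports expression of the transcription factor WT1 from 1 of its alleles, a genotype that all groups share, and all were isolated by density centrifugation and sorted on GFP. WT1-high (GFP high) and WT1-intermediate (GFP low) cells were taken directly from livers chronically injured with carbon tetrachloride injected into the peritoneum, whereas WT1-negative (GFP negative) cells had been quiescent stellate cells allowed to activate for 7 days on plastic. Ages are not given in the labels. WT1 status and origin therefore coincided, and in every comparison with WT1-negative cells they cannot be told apart. The WT1-high and WT1-intermediate arrays are described as coming from the same few animals, so they are not independent of each other. Levels are log2 intensities after background correction and quantile normalisation. A difference is termed called where the adjusted p of limma (Benjamini-Hochberg over all 20573 probes tested) was under 0.05, and all adjusted p values below are of this kind. A gene with several probes is given first by its brightest probe. Errors of differences are SE, and intervals are 95%.

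Between 38.1% and 43.7% of gene probes were detected per array. Genes of stellate cells were present in each group (12 of 16 detected on all 3 arrays of a group), but Gfap and Lhx2 were detected on 0 arrays and Lrat, which forms the retinyl ester store, on 1. Genes of other cell types also differed between groups. The summed intensity of 20 macrophage genes was 8589 to 13439 in WT1-high, 23791 to 38387 in WT1-intermediate and 74114 to 79407 in WT1-negative cells. That of 12 mesothelial genes was 41749 to 46002, 25348 to 33620 and 440 to 537, and that of 13 skeletal muscle genes was 433 to 720, 406 to 450 and 7555 to 11245. That of 10 portal fibroblast genes was 9624 to 11446, 10524 to 15459 and 5566 to 7326. For 14 endothelial genes it was 1418 to 1870, 2461 to 2888 and 1822 to 2509. For 15 hepatocyte genes it was 6825 to 10610, 3447 to 5619 and 3772 to 5093. Trf, the brightest hepatocyte gene (mean log2 levels 12.5, 11.7 and 11.9), weighs heavily in this last sum, which therefore says little about the others. Of 11 hepatocyte genes tested against WT1-negative cells, WT1-high had 8 called higher and 1 lower. For the WT1-intermediate group these counts were 5 and 1. Gas6 (mean log2 levels 12.3, 12.2 and 12.1) likewise weighs heavily in the portal fibroblast sum. Of 9 portal fibroblast genes tested, 6 were called higher and 1 lower in each WT1-positive group than in WT1-negative cells. Of the macrophage genes, Ptprc and Clec4f were detected on 0 WT1-negative arrays, although the sum was highest there. In such bulk samples fewer cells of a type and less RNA per cell cannot be told apart. Their part in the results on the members was not tested.

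The sequences that carry the results are given first. Probes of Sparc, Cyr61 and Fn1 are shown because probes of these genes gave different answers, and that of Spp1 because the call between the WT1-positive groups rests on it alone. Each probe had 50 bases, of which the first 30 are printed 5′ to 3′ from the deposited annotation, with no base in capitals. Within Sparc, Cyr61 and Fn1 the longest run shared by any pair of probes was 8 bases, so the probes did not overlap.
Sparc ILMN_1243212: ccatgcaaactctcacagcaatgtgaagag
Sparc ILMN_3059326: tcccagcatcatgagggcctggatcttctt
Sparc ILMN_3136561: acatgacagactcccagcagcccgggacct
Cyr61 ILMN_1235571: gctccatattggagcatgtttacggatgac
Cyr61 ILMN_2794645: gagacaaaataagattagttgggccaagtg
Cyr61 ILMN_2710253: attaaggactccctggacgaccaggatgac
Fn1 ILMN_2595714: cctgaaccagcctacagatgactcatgctt
Fn1 ILMN_2588227: ggaagacctaccatgtaggagaacagtggc
Fn1 ILMN_2646618: gatcgccctaaaggactggcattcactgat
Spp1 ILMN_2690603: gttgtttcatgcaaacaccgttgtaaccaa

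Promoters of Cyr61 and Spp1, the members with the largest called rise and fall by their brightest probes, are shown as the 250 bases before the annotated start in RefSeq (build GRCm38.p6). Entries were found for 6 of the 10 members, with 9 windows, and not for Thbs1, Ctgf, Nov and Fn1. Capitals mark the letters GGAATG, which the TEAD factors recognise, and the TATA box letters TATAAA, each on either strand. GGAATG was in 12.6% and TATAAA in 12.4% of all 32851 windows of this length. The AP-1 letters TGANTCA (6.75% of windows) and the CArG box of serum response factor (1.47%) were searched as well and matched in none of the 9 windows. The Sp1 letters GGGCGG (32.7% of windows) matched at 2 positions in that of Cyr61 and in both windows of Tnc, and are not in capitals. A match describes the letters only.
Cyr61, chr3:145649986-145650235, minus strand: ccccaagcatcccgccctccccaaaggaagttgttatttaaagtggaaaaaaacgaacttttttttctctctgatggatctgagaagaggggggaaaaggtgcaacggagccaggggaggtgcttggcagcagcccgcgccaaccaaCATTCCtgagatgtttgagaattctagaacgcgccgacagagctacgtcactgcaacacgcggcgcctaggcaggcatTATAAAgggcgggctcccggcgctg
Spp1, chr5:104434861-104435110, plus strand: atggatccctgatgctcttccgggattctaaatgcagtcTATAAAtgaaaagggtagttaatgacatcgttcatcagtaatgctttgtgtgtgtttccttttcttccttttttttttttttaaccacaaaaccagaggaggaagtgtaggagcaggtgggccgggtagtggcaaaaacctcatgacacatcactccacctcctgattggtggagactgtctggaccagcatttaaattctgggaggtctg

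In Cyr61 the TEAD letters began 103 bases and the TATA letters 25 bases before the start. Of the 9 windows, that of Cyr61 alone held GGAATG. In Spp1 TATAAA began 211 bases before the start of this window, and a second RefSeq window further downstream (chr5:104435942-104436191) held none of the letters searched. Thbs2, Tnc and Postn each had a window with TATAAA, and Sparc had none.

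The members did not move as a block. Cyr61 was higher by 2 of its 3 probes in both WT1-positive groups than in WT1-negative cells, and Sparc was higher by its brightest probe in WT1-high cells. Thbs1 was lower in both WT1-positive groups. So was Ctgf by its brightest probe, although both of its calls were lost under some alternatives. Spp1 and Thbs2 were lower in WT1-high cells than in WT1-negative cells, and the WT1-positive groups differed in Spp1, which was lower in WT1-high cells. Nov and the brightest probes of Tnc and Fn1 were not called in any comparison, and Postn stayed at background.

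**Figure D1:**
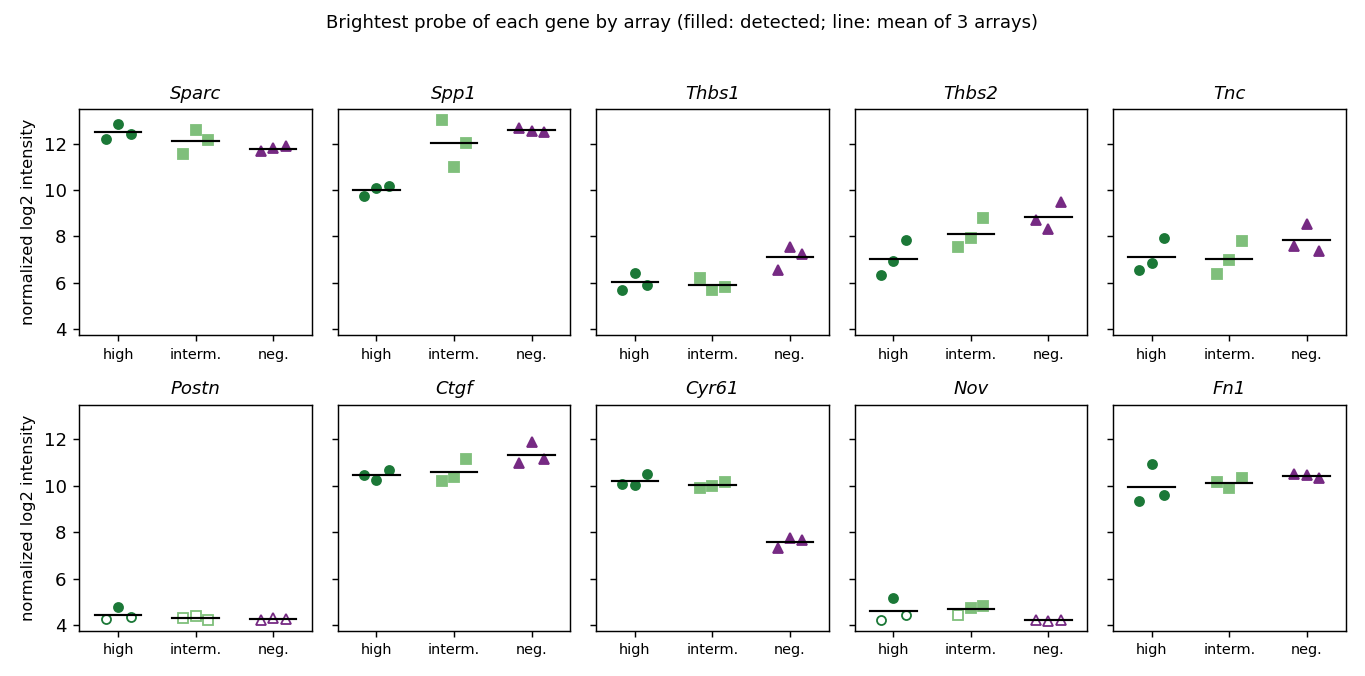
Normalised log2 intensity of the brightest probe of each of the 10 genes in WT1-high, WT1-intermediate and WT1-negative cells. Points are arrays, filled where the probe was detected (detection p under 0.05), and lines are means of 3 arrays. Cyr61 stands apart as higher in both WT1-positive groups, Spp1 as low in WT1-high cells only, and Postn and Nov lie near the floor.

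When WT1-high cells were set against WT1-intermediate cells, 1 of the 9 members tested (by the brightest probe) was called, and it was lower. Over all probes 3.55% were called in this comparison, 0.904% higher and 2.64% lower. The groups did not overlap for 1 member, against 20.1% of all probes. The median log2 difference of the members was -0.08 and that of all probes 0.05.

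Between WT1-high and WT1-negative cells 6 of 9 members were called, 2 higher and 4 lower, against 59.6% of all probes, 26.5% higher and 33.1% lower. The groups did not overlap for 7 members, against 68.4% of all probes. The median log2 difference was -0.72 for the members and -0.10 for all probes.

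Between WT1-intermediate and WT1-negative cells 3 of 9 members were called, 1 higher and 2 lower, against 58% of all probes, 24.4% higher and 33.6% lower. The groups did not overlap for 3 members, against 65.5% of all probes. The median was -0.56 for the members and -0.13 for all probes. The members' share of calls was thus near the background of the arrays in the comparison of WT1-high with WT1-negative cells and below it in this one, and neither count says anything particular to these genes. The comparisons with WT1-negative cells share those 3 arrays. In this comparison the count depended on the scaling, with 6 members called when arrays were scaled to a common median in place of quantile normalisation.

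**Figure D2:**
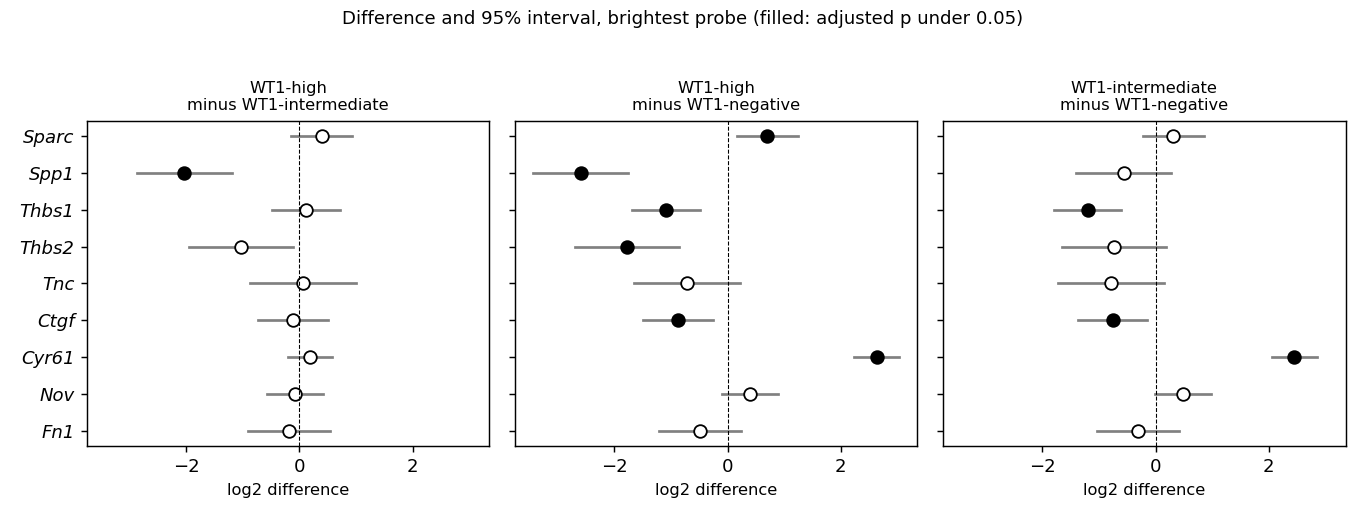
Log2 differences between groups for the 9 members tested, by the brightest probe of each. Points are differences, bars are 95% intervals, and filled points are called (adjusted p under 0.05). A single filled point (Spp1) stands in the comparison of the WT1-positive groups, 6 in WT1-high against WT1-negative cells and 3 in WT1-intermediate against WT1-negative cells.

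The CCN proteins bind integrins and heparan sulfate proteoglycans, and Cyr61 and Ctgf are textbook targets of the YAP and TEAD transcription complex. Cyr61, which can drive myofibroblasts into senescence, was read on chromosome 3 by 3 probes. Its brightest probe (ILMN_2794645) had levels of 10.09, 10.01 and 10.51 in WT1-high replicates 1, 8 and 29, of 9.91, 9.99 and 10.15 in WT1-intermediate replicates 1, 8 and 30, and of 7.30, 7.74 and 7.66 in WT1-negative replicates 3, 11 and 14. All 6 in vivo arrays lay above all 3 cultured arrays, while the WT1-positive groups overlapped each other. WT1-high exceeded WT1-negative cells by 2.64 on the log2 scale (SE 0.18, 6.22-fold, adjusted p 4.17e-07) and WT1-intermediate cells did so by 2.45 (SE 0.18, 5.46-fold, adjusted p 9.54e-07). Between the WT1-positive groups the difference was 0.19 (interval -0.21 to 0.58, adjusted p 0.649). It was called under scaling to the median of all probes alone (adjusted p 0.0437), a setting that shifted the median difference of all probes from 0.05 to 0.45. The call against WT1-negative cells was kept under each alternative run for this probe, in both WT1-positive groups.

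A second probe of Cyr61 (ILMN_1235571) went the same way. It read 8.98, 9.05 and 9.47 in WT1-high, 9.05, 8.78 and 9.22 in WT1-intermediate and 5.44, 5.46 and 5.96 in WT1-negative cells, with differences from WT1-negative of 3.55 (SE 0.20, adjusted p 9.69e-08) and 3.40 (SE 0.20, adjusted p 1.73e-07). The remaining probe (ILMN_2710253) did not. Its levels were 8.02, 7.97 and 8.20 in WT1-high, 7.80, 7.49 and 7.99 in WT1-intermediate and 6.88, 8.09 and 8.07 in WT1-negative cells, so that the groups overlapped. The differences from WT1-negative were 0.38 (interval -0.24 to 1.01, adjusted p 0.264) and 0.08 (interval -0.55 to 0.71, adjusted p 0.823), and neither interval reached those of the other probes. The rise of Cyr61 in WT1-positive cells thus holds for 2 of its 3 probes.

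Ctgf, a profibrotic CCN protein induced by transforming growth factor beta, went the opposite way to Cyr61. Its brightest probe (ILMN_2909150, chromosome 10) had levels of 10.45, 10.27 and 10.68 in WT1-high, 10.19, 10.40 and 11.18 in WT1-intermediate and 11.00, 11.88 and 11.17 in WT1-negative cells. The WT1-high arrays all lay below the WT1-negative arrays, and WT1-intermediate replicate 30 lay among the latter. The differences from WT1-negative were -0.88 (SE 0.28, 1.84-fold lower, adjusted p 0.0186) in WT1-high and -0.76 (SE 0.28, 1.69-fold lower, adjusted p 0.0365) in WT1-intermediate cells. Both were called at levels close to the threshold. The first call was lost without WT1-high replicate 8 (adjusted p 0.0623) or WT1-negative replicate 11 (0.0784), with no filter (0.0709) and with all probes averaged (0.07). The second was lost without WT1-intermediate replicate 1 (0.132), WT1-intermediate replicate 8 (0.105) or WT1-negative replicate 11 (difference -0.50, adjusted p 0.147), and under 5 other alternatives. The other probe (ILMN_1238215) was not called, with -0.34 (adjusted p 0.269) and -0.33 (adjusted p 0.289), although the latter was called without WT1-intermediate replicate 30 (difference -0.62, adjusted p 0.0302) and under scaling to the median of all probes (difference -0.98, adjusted p 0.00394). Between the WT1-positive groups the difference was -0.12 (interval -0.73 to 0.50, adjusted p 0.874). Nov, a CCN protein reported to counter Ctgf, was close to background. Its probe ILMN_1259573 was detected on 1 WT1-high, 2 WT1-intermediate and 0 WT1-negative arrays, at no more than 5.16. WT1-intermediate stood at least 1.05-fold above WT1-negative cells (adjusted p 0.0894). No fold is given for WT1-high against WT1-negative cells, whose difference was not called (adjusted p 0.144) except without WT1-high replicate 1 (adjusted p 0.0477), and the second probe of Nov was detected on 0 arrays.

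Because Cyr61 and Ctgf share regulators, other targets of YAP and of the actin-responsive serum response factor were counted. Of 19 tested, 7 were called higher and 5 lower in WT1-high than in WT1-negative cells, and 7 higher and 6 lower in WT1-intermediate cells. For this list and those below, the shares of all probes called were 59.6% and 58%, so counts near these are not a result about the list. The median log2 differences were 0.14 and 0.18, and 0 of the 19 were called between the WT1-positive groups by limma. Of the 4 genes with the largest called differences in each comparison, 3 were lower. Actg2, a smooth muscle actin, was at least 17.2-fold lower in WT1-high cells (adjusted p 5.3e-06), and its log2 difference in WT1-intermediate cells was -3.15 (adjusted p 6.87e-05). Ankrd1, a YAP target induced by stretch, differed by -3.78 and -2.86 (adjusted p 2.89e-06 and 2.81e-05), and the myosin light chain Myl9 by -2.32 and -2.31 (8.28e-06 and 1.06e-05). In contrast the phosphatase Ptpn14 (2.34 in WT1-high, adjusted p 0.00395) and the stress gene Gadd45b (2.11 in WT1-intermediate, adjusted p 1.44e-05) were higher. Among the cytoskeletal genes of the list, Vcl (vinculin) was also higher, by 1.73 and 1.41 (adjusted p 1.52e-05 and 8.47e-05). Skeletal muscle markers were detected mainly in WT1-negative cells, as given above, and their part in these differences was not tested.

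Among targets of transforming growth factor beta, 3 of 10 tested were called higher and 0 lower in WT1-high than in WT1-negative cells, and 4 higher and 1 lower in WT1-intermediate cells, with medians of 0.29 and 0.55. Timp3, a matrix metalloproteinase inhibitor, was higher by 2.35 and 1.91 (adjusted p 7.46e-07 and 4.39e-06) and Skil, a feedback inhibitor of the pathway, by 1.36 and 1.65 (4.11e-05 and 1.09e-05). Tgfb1i1, a focal adhesion adaptor, was higher by 0.95 in WT1-high cells (adjusted p 0.00111). In WT1-intermediate cells Tgfbi, a periostin relative, was higher by 0.70 (adjusted p 0.0113) and the integrin subunit Itgb5 by 0.65 (0.0023). Both lost these calls under each median scaling, and under scaling to the median of all probes Itgb5 turned to -0.08. Ctgf therefore did not follow the direction of the called genes of this list in WT1-high cells. Itgb5 was also the gene of the list called between the WT1-positive groups, with a log2 difference of -0.94 (adjusted p 0.00527).

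Sparc encodes a collagen-binding protein that guides fibril assembly. It was bright in every group, but its 3 probes, annotated to versions of 1 transcript record, disagreed. The brightest (ILMN_3136561, chromosome 11) had levels of 12.19, 12.83 and 12.43 in WT1-high, 11.55, 12.57 and 12.16 in WT1-intermediate and 11.67, 11.79 and 11.89 in WT1-negative cells. WT1-high arrays lay above WT1-negative arrays, whereas the other pairs of groups overlapped. WT1-high exceeded WT1-negative cells by 0.70 (SE 0.25, 1.63-fold, adjusted p 0.029), and this call was lost without WT1-high replicate 8 (adjusted p 0.112), WT1-negative replicate 3 (0.0788) or WT1-negative replicate 11 (0.0596), with no filter (0.0882) and under scaling to the median of all probes (0.0922). WT1-intermediate cells differed from WT1-negative cells by 0.31 (interval -0.23 to 0.85, adjusted p 0.297; called without WT1-intermediate replicate 1, adjusted p 0.0409) and from WT1-high cells by 0.39 (interval -0.15 to 0.93, adjusted p 0.462).

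The probe ILMN_1243212 of Sparc separated the groups far more. Its levels were 10.40, 11.56 and 11.36 in WT1-high, 10.15, 11.15 and 11.17 in WT1-intermediate and only 7.55, 5.99 and 7.56 in WT1-negative cells. The differences from WT1-negative were 4.08 (SE 0.45, 16.9-fold, adjusted p 1.51e-05) and 3.79 (SE 0.45, 13.9-fold, adjusted p 3.14e-05), and both calls were kept under each alternative run. The probe ILMN_3059326 showed no separation, at 11.24, 11.92 and 11.05, 10.76, 11.21 and 11.27, and 10.99, 11.58 and 11.61 in the same order. Its differences were 0.01 (interval -0.55 to 0.57, adjusted p 0.968) and -0.31 (interval -0.87 to 0.25, adjusted p 0.313). The interval of ILMN_1243212 for WT1-high against WT1-negative cells ran from 3.09 to 5.06 and lay clear of those of both other probes. Averaging all probes of the gene raised the difference between WT1-intermediate and WT1-negative cells to a call (adjusted p 0.00198), so a statement on Sparc depends on which probe is read.

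**Figure D3:**
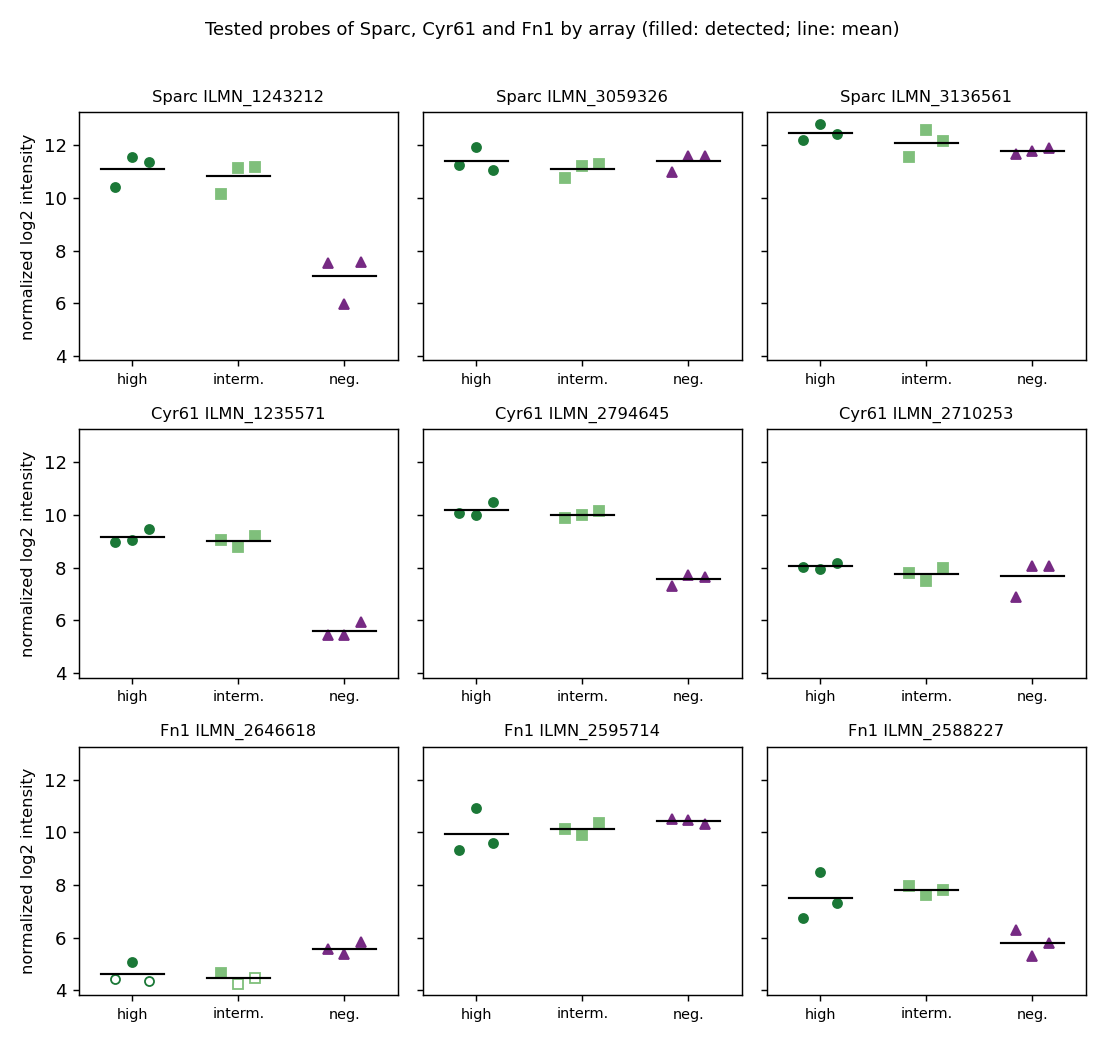
Normalised log2 intensity of the tested probes of Sparc (top row), Cyr61 (middle) and Fn1 (bottom) in the 3 groups. Points are arrays, filled where detected, and lines are means of 3 arrays. In Sparc 1 of 3 probes falls from above 10 in WT1-positive cells to below 8 in WT1-negative cells, in Cyr61 2 of 3 fall, and in Fn1 the probes move in opposite directions.

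Fibronectin gave a like picture. The brightest probe of Fn1 (ILMN_2595714, chromosome 1) had levels of 9.34, 10.92 and 9.59 in WT1-high, 10.15, 9.90 and 10.34 in WT1-intermediate and 10.53, 10.45 and 10.33 in WT1-negative cells. WT1-high replicate 8 was the highest of all arrays and the other WT1-high arrays were the lowest, so all groups overlapped. The differences from WT1-negative were -0.49 (interval -1.21 to 0.24, adjusted p 0.222) and -0.31 (interval -1.03 to 0.42, adjusted p 0.441). Without WT1-high replicate 8 the first was called (adjusted p 0.00125). Between the WT1-positive groups the difference was -0.18 (interval -0.90 to 0.54, adjusted p 0.833).

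By contrast, the Fn1 probe ILMN_2588227 was higher in WT1-positive cells. Its levels were 6.76, 8.48 and 7.31 in WT1-high, 7.96, 7.60 and 7.81 in WT1-intermediate and 6.30, 5.30 and 5.79 in WT1-negative cells, and neither WT1-positive group overlapped the cultured arrays. The differences were 1.72 (SE 0.37, 3.30-fold, adjusted p 0.00212) and 2.00 (SE 0.37, 3.99-fold, adjusted p 0.000845). The dim probe ILMN_2646618 went the other way, by -0.98 (SE 0.21, adjusted p 0.00221) and -1.13 (SE 0.21, adjusted p 0.000901). It was detected on 1 WT1-high, 1 WT1-intermediate and 3 WT1-negative arrays, with a highest level of 5.84, so this difference rests on levels near background. A further probe (ILMN_1260125) was detected on 2 arrays and was not tested. The deposited annotation assigns all Fn1 probes to 1 transcript record, while the gene is known to be spliced into several forms, and which part of the transcript each probe reads was not analysed here.

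The share of G and C bases was 40% in the Sparc probe that separated the groups and 58% in both others, and in Cyr61 it was 40% and 44% in the probes that separated them and 58% in that which did not. In Fn1 it was 52%, 50% and 48% in ILMN_2595714, ILMN_2588227 and ILMN_2646618. The part of base composition in these differences was not tested.

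Spp1 encodes osteopontin, an acidic ligand of integrins and CD44 made by macrophages and cholangiocytes as well as by stellate cells. It was the member that separated the WT1-positive groups. Its probe (ILMN_2690603, chromosome 5) had levels of 9.72, 10.10 and 10.16 in WT1-high, 13.03, 11.00 and 12.04 in WT1-intermediate and 12.69, 12.55 and 12.52 in WT1-negative cells. The WT1-high arrays lay below all others, and the WT1-intermediate arrays were spread around the WT1-negative arrays. WT1-high cells were 4.09-fold lower than WT1-intermediate cells (log2 difference -2.03, SE 0.38, adjusted p 0.016) and 6.02-fold lower than WT1-negative cells (log2 difference -2.59, SE 0.38, adjusted p 0.000143). WT1-intermediate and WT1-negative cells differed by -0.56 (interval -1.40 to 0.28, adjusted p 0.228), a difference that was called without WT1-intermediate replicate 1 (adjusted p 0.00834).

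Within the pairs of in vivo arrays that share a number, the log2 difference of WT1-high from WT1-intermediate cells was -3.31 for replicates 1 and -0.91 for replicates 8, and that of WT1-high 29 from WT1-intermediate 30 was -1.88. All pairs had the same direction but differed widely in size. The call between the WT1-positive groups was lost without WT1-high replicate 8 (adjusted p 0.0553), with no filter on detection (0.103) and with only the compared groups in the fit (0.0627), while the direction was the same in each. With arrays left out in turn, the difference ranged from -2.54 to -1.52.

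Macrophage genes moved with Spp1 between the WT1-positive groups. With WT1-high set against WT1-intermediate cells, 16 of 20 were lower and 0 higher, and their summed intensity in WT1-high cells lay below that in WT1-intermediate cells without overlap. The defining markers Emr1 (log2 difference -2.14, adjusted p 0.00172) and Cd68 (-2.12, adjusted p 0.00704) were detected on every array. With WT1-intermediate set against WT1-negative cells, 9 of the 20 genes were lower and 4 higher. The latter were Lyz1 (4.48, adjusted p 2.46e-06), Vsig4 (1.46, adjusted p 0.017), Ptprc and Clec4f. Ptprc (at least 4.04-fold higher, adjusted p 6.17e-06) and Clec4f (at least 4.99-fold, adjusted p 5.61e-05) were detected on 0 WT1-negative arrays. Cd68 was among the lower (-2.75, adjusted p 4.31e-05). Emr1 was not called by its brightest probe (0.34, adjusted p 0.287), while 1 dimmer probe of Emr1 was called lower. In WT1-negative cells the summed intensity lay above that of all WT1-intermediate arrays, whereas Spp1 in WT1-intermediate cells reached the WT1-negative level on 1 of 3 arrays. WT1-intermediate replicate 8 had a macrophage sum of 34064 with Spp1 at 11.00, and replicate 30 had 23791 with Spp1 at 12.04, so that within this group the order of the arrays was not the same. The cholangiocyte list without Spp1 did not move with it, since its sum was highest in WT1-high cells (3023 to 3267, against 1593 to 2401 in WT1-intermediate and 241 to 348 in WT1-negative cells). The endothelial sum was also lower in WT1-high than WT1-intermediate cells without overlap, with 5 of 14 genes called lower and 0 higher. The hepatocyte sum was higher in WT1-high cells, but 0 of 11 hepatocyte genes tested were called in this comparison. The part of RNA from these cell types in the level of Spp1 was not tested.

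**Figure D4:**
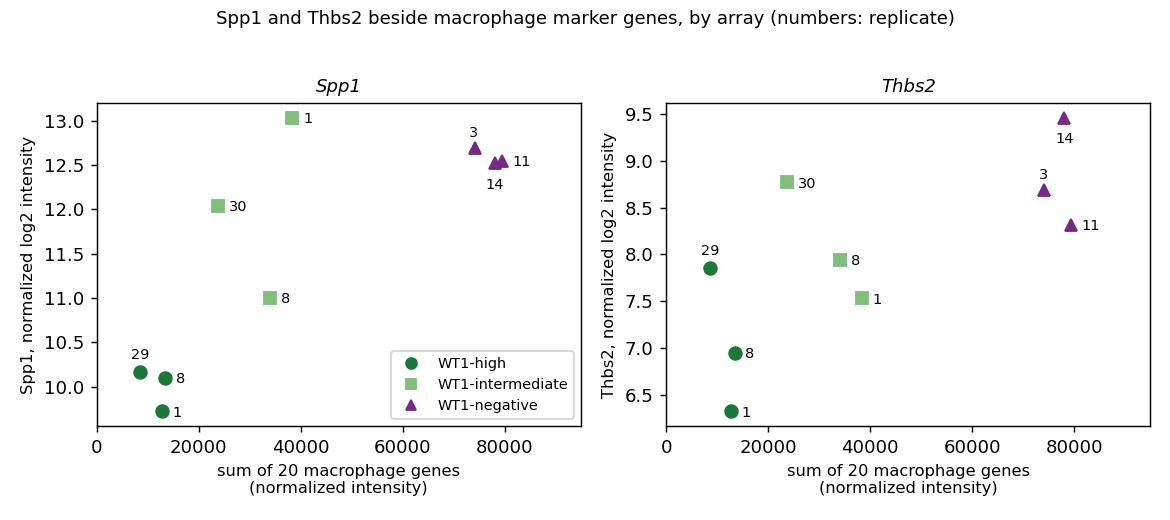
Level of Spp1 (left) and Thbs2 (right) on each array, as normalised log2 intensity, against the summed normalised intensity of 20 macrophage genes. Points are arrays, numbered by replicate. WT1-high arrays lie at a macrophage sum of 8589 to 13439 with Spp1 at or below 10.16, and WT1-negative arrays at 74114 to 79407 with Spp1 at 12.52 to 12.69.

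Thrombospondins are large trimeric proteins that bind CD36 and CD47, and Thbs1 can activate latent transforming growth factor beta. Thbs1 (ILMN_2659151, chromosome 2) was modest in vivo and higher in culture. Its levels were 5.69, 6.44 and 5.90 in WT1-high, 6.21, 5.66 and 5.82 in WT1-intermediate and 6.53, 7.54 and 7.24 in WT1-negative cells, with every in vivo array below every cultured array. The differences from WT1-negative were -1.09 (SE 0.27, 2.13-fold lower, adjusted p 0.0051) and -1.20 (SE 0.27, 2.30-fold lower, adjusted p 0.00296), and both calls were kept under each alternative run. The WT1-positive groups differed by 0.11 (interval -0.49 to 0.71, adjusted p 0.879). The second probe of Thbs1 was detected on 0 arrays. Platelets are a rich source of Thbs1, and the summed intensity of 7 platelet genes was 206 to 290 in WT1-high, 520 to 1730 in WT1-intermediate and 1417 to 2732 in WT1-negative cells. Of these Cxcl4 (Pf4) differed by -4.79 between WT1-high and WT1-negative cells (adjusted p 1.04e-05), and Ppbp was detected on the WT1-negative arrays alone. In contrast Itga2b stood at least 2.66-fold above WT1-negative in WT1-high cells (adjusted p 3.84e-05), Gp1bb and Tubb1 were detected on 0 arrays, and Gp5 and Gp9 on 1 each. The part of platelet RNA in the level of Thbs1 was not tested.

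Thbs2, a thrombospondin with roles in collagen fibril formation, formed a step across the groups. Its single probe (ILMN_2635229, chromosome 17) had levels of 6.32, 6.95 and 7.86 in WT1-high, 7.53, 7.94 and 8.77 in WT1-intermediate and 8.69, 8.32 and 9.46 in WT1-negative cells. WT1-high arrays lay below WT1-negative arrays, and WT1-intermediate arrays overlapped both. WT1-high was 3.43-fold lower than WT1-negative (log2 difference -1.78, SE 0.42, adjusted p 0.0035), a call kept under each alternative run. The neighbouring steps were not called, with -1.04 between WT1-high and WT1-intermediate cells (interval -1.96 to -0.12, adjusted p 0.225) and -0.74 between WT1-intermediate and WT1-negative cells (interval -1.66 to 0.18, adjusted p 0.15). The latter was called under scaling to the median of all probes (adjusted p 0.00787) or of detected probes (0.0292) and with array weights (0.0382). In each of the pairs of in vivo arrays WT1-high was lower by a similar amount, with log2 differences of -1.21, -0.996 and -0.916. With the number in the column names as a replicate block, which treats WT1-high 29 and WT1-intermediate 30 as a pair, this difference was called (adjusted p 0.0326). With the numbers of the labels as a fixed replicate block it was not called. WT1-high 29 and WT1-intermediate 30 then each formed a block of their own. That fit therefore compared the pairs numbered 1 and 8 alone and is no check of all the pairs. The macrophage sum was ordered as Thbs2 was between groups, but within each WT1-positive group the array highest in Thbs2 (replicate 29 or 30) had the lowest macrophage sum, and its part in this difference was not tested.

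Tnc, the tenascin of wound edges and provisional matrix, was read by 6 probes, of which 4 lay at or near background. The brightest (ILMN_2463181, chromosome 4) had levels of 6.57, 6.83 and 7.93 in WT1-high, 6.37, 6.98 and 7.78 in WT1-intermediate and 7.60, 8.52 and 7.38 in WT1-negative cells. The groups overlapped, and within the WT1-positive groups the arrays followed their numbers, with replicates 29 and 30 the highest. The differences from WT1-negative were -0.72 (interval -1.65 to 0.21, adjusted p 0.164) and -0.79 (interval -1.72 to 0.14, adjusted p 0.132). The first was called without WT1-high replicate 29 (adjusted p 0.0336) and the second without WT1-intermediate replicate 30 (0.0399) and under scaling to the median of all probes (difference -1.43, adjusted p 0.00849) or of detected probes (0.0307). A second probe, ILMN_2463180, shares 49 of its 50 bases with the first and is no separate reading. The probe ILMN_1236724 had a called difference, with WT1-high at least 1.08-fold below WT1-negative cells (adjusted p 0.0432), at levels no higher than 4.72. This call was lost under 10 of 15 alternatives, among them each fit without 1 of the WT1-high arrays (adjusted p 0.0874, 0.0758 and 0.102), WT1-intermediate replicate 8 (0.0509) or WT1-negative replicate 14 (0.0938).

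Postn, the periostin that cross-links collagen through lysyl oxidase, was not measurable. Its probe ILMN_2766028 was detected on WT1-high replicate 8 alone, at 4.75, and ILMN_1216882 (chromosome 3) on 0 arrays. On other arrays levels lay between 4.20 and 4.41, the range of probes that were not detected. A level below the detection of these probes does not show that the transcript was absent.

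Relatives of the members were counted next. Of 10 tested, 4 were called higher and 3 lower in WT1-high than in WT1-negative cells, and 6 higher and 2 lower in WT1-intermediate cells, with median log2 differences of 0.12 and 0.95. Tnxb, the tenascin of loose connective tissue, was higher by 3.91 in WT1-high (SE 0.23, adjusted p 1.3e-07) and by 4.92 in WT1-intermediate cells (SE 0.23, adjusted p 3.2e-08), whereas the brightest probe of Tnc was not called. Thbs3 was higher by 1.96 and 2.24 (adjusted p 3.86e-05 and 1.67e-05), in contrast to Thbs1 and Thbs2. Spock2, a proteoglycan of the Sparc family, stood at least 2.76-fold higher in WT1-high cells (adjusted p 1.4e-05). Wisp1, a further CCN gene, differed by -1.60 and -1.55 (adjusted p 0.00114 and 0.00151), the direction of Ctgf. Within the thrombospondin and CCN families, members were thus called in opposite directions.

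Relatives also differed between the WT1-positive groups, where 2 of 10 were called, both lower in WT1-high cells. Sparcl1, the close homologue of Sparc, had a log2 difference of -2.38 between them (SE 0.24, adjusted p 0.000485), and WT1-intermediate cells lay at least 4.99-fold above WT1-negative cells (adjusted p 7.38e-06). It was detected on 1 WT1-high, 3 WT1-intermediate and 0 WT1-negative arrays. For Tnxb the difference was -1.02 (SE 0.23, adjusted p 0.0344), but this call was lost under 11 alternatives. Among them was the fit with the labels' numbers as a fixed replicate block (adjusted p 0.124), which compared the in vivo pairs numbered 1 and 8 alone. Others were the fits without any 1 of WT1-high replicates 1 (0.0699), 8 (0.114) and 29 (0.0874), WT1-intermediate replicates 8 (0.08) and 30 (0.0878) or WT1-negative replicate 14 (0.0526).

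**Figure D5:**
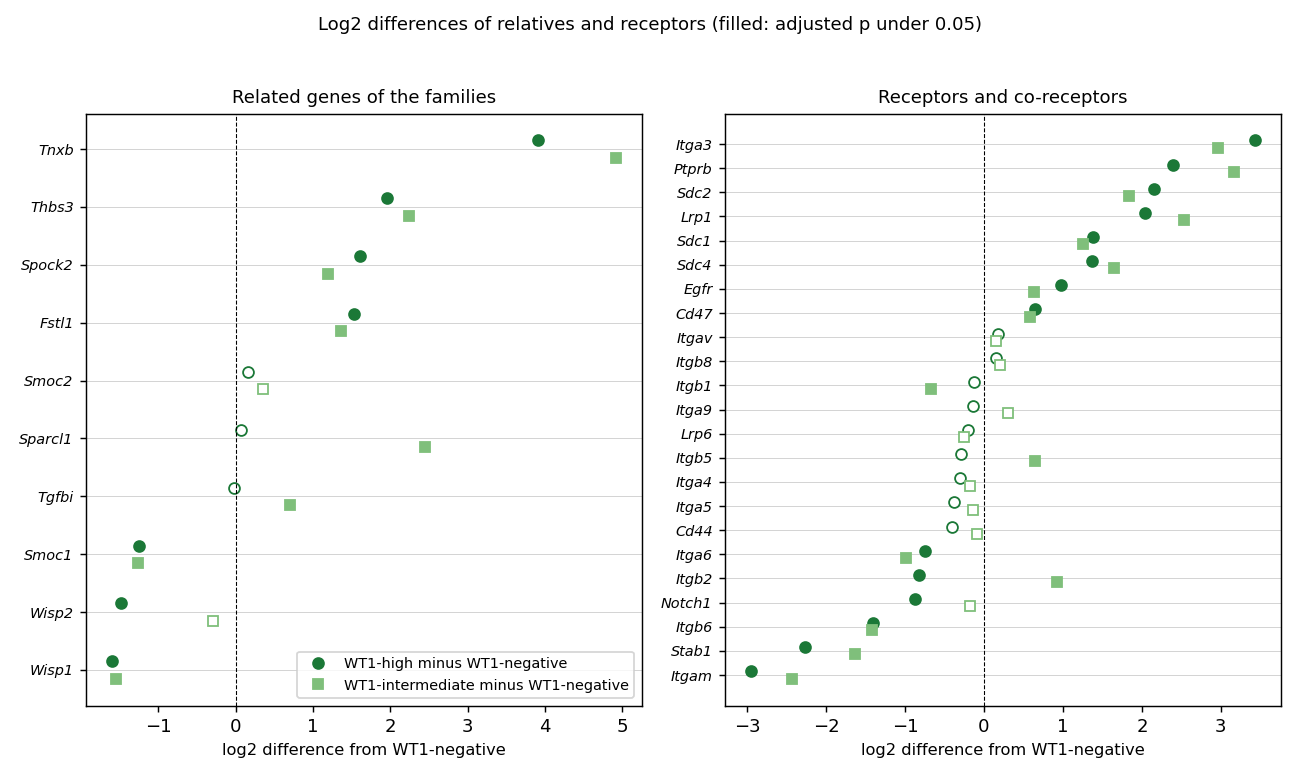
Log2 difference from WT1-negative cells of the 10 tested relatives (left) and 23 tested genes of the receptor list (right), for WT1-high (circles) and WT1-intermediate cells (squares), with filled symbols called (adjusted p under 0.05). Tnxb and Itga3 lie far to the right for WT1-high cells, at 3.91 and 3.43, and Wisp1 and Stab1 to the left, at -1.60 and -2.26. Sparcl1, Smoc2, Spock2, Itgb6, Itgb8 and Itgam were detected on 0 arrays of at least 1 group, so their positions are fitted values without a measured level on one side.

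A list of receptors and other cell surface genes was counted last, and binding of a member was not established here for each of them. Of 23 tested, 8 were called higher and 6 lower in WT1-high than in WT1-negative cells, and 10 higher and 5 lower in WT1-intermediate cells, with medians of -0.14 and 0.20. Itga3, the alpha subunit of a laminin and thrombospondin receptor, was higher by 3.43 and 2.96 (adjusted p 3.33e-06 and 1.22e-05). Lrp1, an endocytic receptor that clears thrombospondins and Ctgf, was higher by 2.53 in WT1-intermediate cells (1.87e-05). Ptprb, a receptor-type tyrosine phosphatase not shown here to be a receptor of a member, was higher by 2.40 and 3.16 (2.06e-06 and 3.27e-07). Ptprz1, another such phosphatase of the list, was detected on 0 arrays and not tested. Itgam, a leukocyte integrin subunit, was at least 6.58-fold lower in WT1-high cells (adjusted p 5.87e-07) and differed by -2.43 on the log2 scale in WT1-intermediate cells (adjusted p 3.13e-06). Stab1, the scavenger receptor that takes up Sparc, differed by -2.26 in WT1-high cells (adjusted p 4.79e-05). Itgb2, the partner of Itgam, was higher in WT1-intermediate cells by 0.92 (adjusted p 0.0062). The macrophage sum was lowest in WT1-high cells, as above, and its part in these receptors was not tested. Of receptors for osteopontin and fibronectin, Cd44, Itga5 and Itgav were not called in any comparison by their brightest probes, whereas Itgb1, the partner of Itga5, differed by -0.66 between WT1-intermediate and WT1-negative cells (adjusted p 0.0125). Cd44 differed by -0.41 between WT1-high and WT1-negative cells (adjusted p 0.0875), Itga5 by -0.38 (0.108) and Itgav by 0.18 (0.338), although each of these 3 had at least 1 dimmer probe that was called in a comparison with WT1-negative cells.

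Between the WT1-positive groups 2 of 23 genes of the receptor list were called. Itgb2, the beta subunit of leukocyte integrins, differed by -1.75 (SE 0.24, adjusted p 0.0029) and Itgb5 by -0.94 (SE 0.14, adjusted p 0.00527). Both calls were lost under scaling to the median of all probes alone (adjusted p 0.0544 and 0.519).

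The genes whose levels were most like those of a member over the 9 arrays were listed as a description, since the points share their arrays and groups. For Cyr61 these were LOC100045877 (Pearson's r 0.996), Anxa8 (0.995) and Pdlim3 (0.994). For Spp1 they were Dnase2a (0.973), Sdcbp (0.973) and Cxcl4 (0.972). For Sparc they were Ndel1 (0.982), Dclk1 (0.974) and 2310044H10Rik (0.971), for Ctgf Fjx1 (0.975), PEBP2aB (0.972) and Rhot2 (0.956), and for Thbs1 Wdfy1 (0.976), Ccdc58 (0.975) and F5 (0.974). Thbs2 was most like Sfrp1 (0.956), F2r (0.954) and Rgs16 (0.949), Tnc like GIG2 (0.929), Lmcd1 (0.928) and Mela (0.923), Nov like Agmat (0.978), Slc6a13 (0.954) and Igfbp4 (0.952), and Fn1 like Atg4c (0.871), Oxt (0.853) and 2310011J03Rik (0.844).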

How the data were processed

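Illumina MouseWG-6 v2.0 bead chips were read, 1 array per sample. The deposited intensity values were the authors' unnormalised BeadStudio summary per probe, with deposited detection p-values matched to every array but 1. A joined deposited table held the same intensities (largest difference 0), and 47 columns of bead counts, errors and repeated or unmatched detection p-values were not used. The in vivo column numbered 29 but marked as GFP low was taken as WT1-intermediate replicate 30, the array of its group left over. Its detection p-values were computed from its 936 negative controls, a rule that gave the deposited values of the other arrays within 0.00107. Values were background-corrected and quantile normalised by neqc (offset 16) of limma 3.58.1 under R 4.3.3. The log2 values were filtered to a detection p under 0.05 on at least 3 of 9 arrays (20573 probes). All arrays entered a model of the 3 groups (6 residual and 5.19 prior degrees of freedom), and groups were compared by limma's two-sided moderated test with Benjamini-Hochberg adjustment at 0.05. This follows the authors' outline, which states no filter. The number of arrays limits the precision. The study's methods describe replicates in vitro as independent cell isolations, and the animals of the cultured arrays are not named. The p-values therefore measure the spread between these samples.

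Members and lists were chosen with earlier results of these data known, and no set test was run. Named list genes are the 4 with the largest called difference in a comparison. Of 214 list entries, 208 were matched by symbol, 1 by synonym and 5 not found. "At least" folds are bounds against the lowest level of a detected probe, for probes detected on 0 arrays of the dimmer group. The pairing of in vivo arrays comes from the labels' numbers, except that 29 and 30 were paired by the column names. All pairs were checked by correlating deviations from group means. Those numbered 1 gave 0.35, those numbered 8 gave 0.34, and 29 with 30 gave 0.47, while other pairs lay between -0.39 and 0.03. The steps were tested on simulated data. Promoters came from RefSeq (GRCm38.p6). Alternatives covered background correction, scaling, offset, filter, samples in the fit, array weights, replicate blocks, averaging of probes and each array left out.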

Additional observations from a re-analysis of the deposited data

How the results depend on the processing

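Of 41 member differences followed, 17 were called, and 12 of these kept their call under all alternatives run for them. The 5 others lost it under at least 1 alternative, 0 turned direction, and 14 uncalled differences gained a call somewhere. Between WT1-high and WT1-intermediate cells, 1 member was called, against 2 with median scaling, 0 with no filter, 0 with the compared groups only, 2 with the replicate block by column names (chosen after seeing the data) and 0 to 1 with arrays left out in turn (0 without WT1-high replicate 8). Between WT1-intermediate and WT1-negative cells, 3 members were called, against 6 with median scaling and 6 with the median taken over detected probes (also chosen after seeing the data). The fixed replicate block could be fitted for the WT1-positive groups only, where it called 817 probes against 730 without it, and it changed no call of a member. It used the labels' numbers, so WT1-high 29 and WT1-intermediate 30 stood in blocks of their own. Only the pairs numbered 1 and 8 entered its contrast, so it is no check of all the pairs.

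Over all probes, the 730 calls between the WT1-positive groups (74.5% lower) became 2684 (4.51% lower) with median scaling, 1040 (67.2%) over detected probes, 510 (62.4%) with no background correction, 335 (65.7%) with no filter, 339 (82.9%) with the compared groups only, 1752 (58.9%) with the random and 1656 (63.6%) with the column-name replicate block, and 324 to 866 with arrays left out. Between WT1-intermediate and WT1-negative cells the 57.9% of calls that were lower became 76.9% with median scaling and 48.8% with cyclic loess. With detection required on all arrays, 7970 probes were called between WT1-high and WT1-negative cells and 7716 between WT1-intermediate and WT1-negative cells, against 12258 and 11935, from fewer probes tested. Median scaling moved the median difference of all probes from 0.05 to 0.45 between the WT1-positive groups and from -0.13 to -0.44 between WT1-intermediate and WT1-negative cells.

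Among the member differences, signs that turned were all of uncalled differences, and the cause was not tested. Between the WT1-positive groups Ctgf (-0.12) became 0.55 with median scaling, 0.061 over detected probes and 0.069 with the fixed replicate block. Nov (-0.08) became 0.11, 0.070 and 0.098 with median scaling, cyclic loess and that block, Fn1 (-0.18) became 0.49 and 0.11 with median scaling and the block, and Tnc (0.07) became -0.12 with array weights. Against WT1-negative cells, averaging of probes gave Fn1 differences of 0.087 (WT1-high) and 0.19 (WT1-intermediate), and median scaling gave Sparc -0.20 in WT1-intermediate cells. Sparc ILMN_3059326 in WT1-high cells was -0.049 over detected probes and -0.043 with array weights. In WT1-intermediate cells Tnc ILMN_1236724 was 0.17 over detected probes, and Cyr61 ILMN_2710253 was -0.62 with median scaling, -0.19 over detected probes and -0.064 with array weights. With arrays left out, differences between the WT1-positive groups ranged from -0.10 to 0.27 (Thbs1), -0.34 to 0.44 (Tnc), -0.31 to 0.17 (Ctgf), -0.20 to 0.12 (Nov) and -0.67 to 0.13 (Fn1). Against WT1-negative cells they ranged from -0.25 to 0.19 for Sparc ILMN_3059326 and -0.015 to 0.59 for Cyr61 ILMN_2710253 in WT1-high, and from -0.32 to 0.28 for the latter in WT1-intermediate cells.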
